A study of Mus musculus with 12 samples.

Results

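A set of 10 genes used to recognise radial glia and astrocytes was followed in sorted Pdgfra/GFP+ cells of the mouse nervous system, in 12 total RNA-seq libraries. They were taken by name and are Fabp7, Vim, Nes, Hopx, Slc1a3, Slc1a2, Aldh1l1, Aqp4, Gfap and Gja1. All 10 were found among the 47072 rows of the expression table, and all 10 were among the 18319 genes with at least 0.7 CPM (counts scaled by library size) in at least 3 libraries. Aqp4 and Gfap passed that limit through the P7 libraries alone. The libraries came from Pdgfra-H2BGFP mice, heterozygous for a knock-in that places a nuclear green fluorescent protein under Pdgfra, a receptor gene of oligodendrocyte precursors. GFP+ cells were sorted from brain (forebrain) and from spinal cord, in embryos at E13.5 and pups at P7 (E and P count embryonic and postnatal days). The 4 groups hold 3 libraries each. Every group carried the same allele, no group received a treatment, and each library pooled several animals of both sexes on a C57BL/6NJ background. The fluorescent protein outlasts Pdgfra transcription for a while, so cells in early oligodendrocyte differentiation are also sorted. Embryos were dissociated by trituration and pups with papain, so the effects of age and of dissociation cannot be told apart here.

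Radial glia are the elongated progenitors that line the ventricles of the embryonic nervous system. They divide to give neurons first and glia later, including the precursors of oligodendrocytes, and many end as astrocytes or ependymal cells. They carry the intermediate filament proteins vimentin and nestin, the fatty acid carrier Fabp7 and the glutamate transporter GLAST. Astrocytes keep GLAST, add the transporter GLT-1, fill with glial fibrillary acidic protein, place aquaporin-4 in their endfeet and couple through connexin 43 channels. Several of these genes are also used by oligodendrocyte precursors, by fibroblast-like cells of the meninges and vessels, or by early neurons, so none of them marks a cell type alone.

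The filament genes lie on 3 chromosomes of the GRCm38 build (positions from GENCODE M21). Vim (ENSMUSG00000026728, chr2:13573927-13582826, plus strand) encodes vimentin, Nes (ENSMUSG00000004891, chr3:87971078-87980451, plus strand) nestin and Gfap (ENSMUSG00000020932, chr11:102887336-102900912, minus strand) glial fibrillary acidic protein. Slc1a3 (ENSMUSG00000005360, chr15:8634124-8710764, minus strand) encodes GLAST and Slc1a2 (ENSMUSG00000005089, chr2:102658659-102790784, plus strand) GLT-1, which clear glutamate from the extracellular space. Fabp7 (ENSMUSG00000019874, chr10:57784881-57788450, plus strand) encodes the brain fatty acid binding protein. Gja1 (ENSMUSG00000050953, chr10:56377330-56402513, plus strand), which encodes connexin 43, lies on the same chromosome. Aqp4 (ENSMUSG00000024411) encodes the water channel aquaporin-4. Aldh1l1 (ENSMUSG00000030088, chr6:90486427-90600203, plus strand) encodes a folate-metabolising dehydrogenase. Hopx (ENSMUSG00000059325, chr5:77086988-77115121, minus strand) encodes a small homeodomain protein that does not bind DNA by itself. Values are for whole genes, all exons included. Hopx shared 412 exon bases with the antisense gene Hopxos, which averaged 0.166 CPM, and Aldh1l1 shared 499 with Gm15756, which was listed at 0. Slc1a2 shared 189 exon bases with the antisense gene Gm13872 at 0.019 CPM. No source used here says if strand entered the counting, so these 3 genes are uncertain to that extent.

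The stretch before the start site is shown for a member that was higher at P7 (Gfap), a member that fell (Gja1) and a member whose change depended on the region (Slc1a3). The 250 upstream bases of these 3 hold no exon of GENCODE M21. The Gfap window lies in introns of a longer Gfap transcript and of the opposite-strand gene Gm26668 (0.139 CPM on average), and the other 2 lie outside any gene. The sequences are RefSeq's for GRCm38.p6 and run 5′ to 3′ along the gene's strand up to the base before the annotated start, at chr11:102897201-102897450 (minus strand) for Gfap, chr10:56377050-56377299 (plus strand) for Gja1 and chr15:8710808-8711057 (minus strand) for Slc1a3. Capitals mark matches, on either strand, to TTCNNNGAA, the palindrome read by STAT factors, to TGGGAA, the core read by RBPJ of the Notch pathway, or to TGANTCA, the element read by AP-1. No 2 matches overlap in these windows.
Gfap: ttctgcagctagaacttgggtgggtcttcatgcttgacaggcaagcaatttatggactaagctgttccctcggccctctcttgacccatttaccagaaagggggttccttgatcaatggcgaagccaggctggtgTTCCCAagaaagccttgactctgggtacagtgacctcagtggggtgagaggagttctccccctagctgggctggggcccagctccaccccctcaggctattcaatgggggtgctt
Gja1: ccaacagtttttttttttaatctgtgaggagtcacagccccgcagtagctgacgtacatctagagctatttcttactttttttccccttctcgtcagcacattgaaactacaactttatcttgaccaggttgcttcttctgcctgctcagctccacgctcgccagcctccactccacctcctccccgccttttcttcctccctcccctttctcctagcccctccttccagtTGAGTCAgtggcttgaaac
Slc1a3: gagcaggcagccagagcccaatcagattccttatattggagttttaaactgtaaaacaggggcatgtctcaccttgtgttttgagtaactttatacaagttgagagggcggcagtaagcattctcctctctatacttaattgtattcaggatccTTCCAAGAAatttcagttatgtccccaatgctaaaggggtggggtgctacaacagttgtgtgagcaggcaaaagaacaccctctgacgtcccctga

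The Gfap stretch held 1 RBPJ match, written on the opposite strand, from 115 to 110 bases before the start. The Gja1 stretch held 1 AP-1 match from 19 to 13 bases before the start, and the Slc1a3 stretch held 1 STAT match from 96 to 88 bases before it. Of 32851 RefSeq promoter windows of the same 250 bases, 21.6% held an RBPJ match, 6.75% an AP-1 match and 7.02% a STAT match. Promoter entries were found for 9 of the 10 members. Among these 9, RBPJ matches were also found before Fabp7 and Aldh1l1, and the STAT and AP-1 letters in no other member's window. A match is a description of the letters and was not tested against any binding data.

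Read totals recovered from the table ranged from 12566345 to 38790312 per library, all P7 libraries being deeper than all E13.5 libraries. A count of 3 reads corresponded to between 0.0792 and 0.506 CPM. E13.5 spinal cord replicate 3 stood apart, with a scaling factor of 0.472 against 0.955 to 1.199 for the other 11. P7 replicates 1 and 2 resembled each other more than other replicates did. Their counts differed by a chi-square of 2.44 per gene in brain and 3.67 in spinal cord, where counting noise alone gives about 1, against 18.03 to 24.9 for either of them with replicate 3. They were kept as separate replicates, and results were also computed with their mean as 1. By the same chi-square, E13.5 spinal cord replicate 3 lay farthest from its group. It differed from replicates 1 and 2 by 643 and 764 per gene, and these 2 from each other by 17.5. This library is in every E13.5 spinal cord mean, and results were also computed without it. The methods call the libraries of a group biological replicates made from pools, without saying if the pools came from separate litters. The p-values measure the spread between these pools. Over all genes tested, the median change in brain from E13.5 to P7 was -0.19 on the log2 scale with the deposited scaling and -0.02 with recomputed TMM factors, and -0.19 and -0.02 for brain minus spinal cord at P7. The deposited library sizes of P7 brain were 13.1% to 16.3% above the TMM sizes. Relative to TMM this shifts all P7 brain values by -0.22 to -0.18 on the log2 scale. In the other groups the deposited and TMM sizes were equal. Values below use the deposited scaling unless stated.

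Per kilobase of exon, Fabp7 was the most abundant of the 10 genes in all 4 groups. It reached 315 ± 110 CPM per kb in brain at E13.5, 153 ± 29.7 in spinal cord at E13.5, 647 ± 167 in brain at P7 and 406 ± 17.6 in spinal cord at P7 (SD, n = 3). At E13.5 it was followed by Vim, at 134 ± 14.96 CPM per kb in brain and 87.2 ± 21.1 in spinal cord. Nes (60.2 ± 4.26), Gja1 (58.8 ± 13.7) and Slc1a3 (48.3 ± 2.17 CPM per kb) came next in brain at E13.5, and Gja1 overlapped with both of its neighbours. In E13.5 spinal cord Gja1 (52.7 ± 7.24) and Slc1a3 (49.6 ± 9.79 CPM per kb) overlapped, and Nes lay below both at 25.4 ± 3.37. Slc1a2, Hopx and Aldh1l1 were at most 10.1 CPM per kb in every E13.5 library, and Gfap and Aqp4 ended the order in both regions with overlapping values.

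At P7 the order had changed. In P7 brain Slc1a3 (50.5 ± 5.48 CPM per kb) and Slc1a2 (25.5 ± 5.36) followed Fabp7, and Vim (17.1 ± 1.31), Nes (13.7 ± 0.954), Gja1 (8.68 ± 0.253) and Aqp4 (5.06 ± 1.23) came after them with no overlap between neighbours. Aldh1l1 (2.67 ± 0.451) and Gfap (2.501 ± 0.621 CPM per kb) overlapped, and Hopx was last at 1.48 ± 0.175. In P7 spinal cord Slc1a3 (22.7 ± 0.212) and Slc1a2 (19.6 ± 2.07 CPM per kb) were again next after Fabp7. Nes, at 11.1 ± 1.495, stood above Vim, at 9.02 ± 2.42 CPM per kb, with overlapping libraries. Aqp4 (5.48 ± 2.69), Hopx (5.12 ± 0.289), Gfap (4.01 ± 1.17) and Gja1 (3.55 ± 0.0931) each overlapped with the next, and Aldh1l1 was lowest at 1.44 ± 0.306 CPM per kb.

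**Figure D1:**
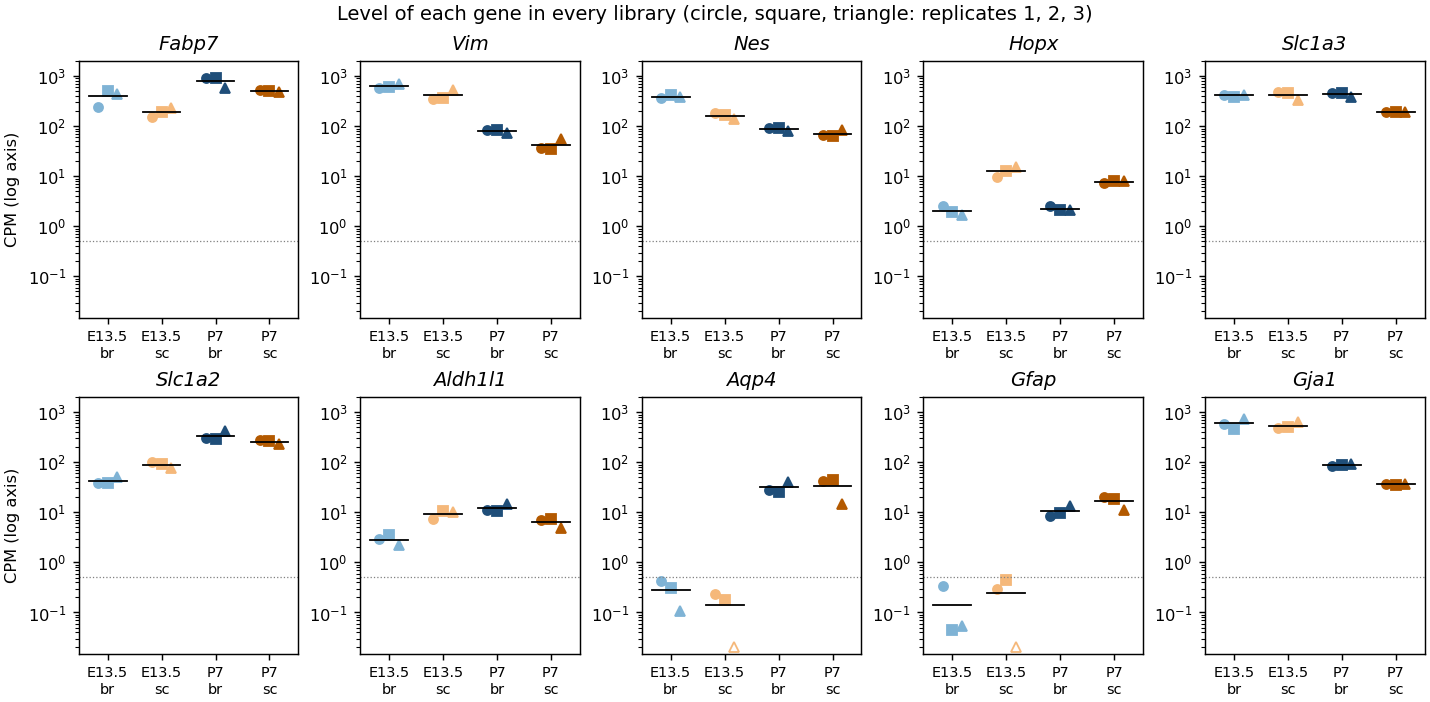
Level of each of the 10 genes in CPM on a log axis, with br for brain and sc for spinal cord. Each symbol is a library, the bar is the mean of the 3 libraries, open symbols at the bottom edge are libraries listed at 0, and the dotted line is the 0.506 CPM that 3 reads give in the shallowest library. Aqp4 and Gfap lie under that line in every E13.5 library, while Vim and Gja1 are lower in every P7 library than in every E13.5 library.

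Among the intermediate filament genes, Vim and Nes fell and Gfap was higher at P7. Vim stood at 573, 615 and 712 CPM in the 3 E13.5 brain libraries and at 342, 370.3 and 528 in spinal cord at E13.5. It stood at 83.8, 85.5 and 74.0 CPM in brain at P7 and at 37.0, 35.4 and 56.0 in spinal cord at P7. The ages did not overlap in either region. Its change, P7 minus E13.5, was -2.95 ± 0.19 in brain and -3.26 ± 0.19 in spinal cord (log2, SE), with limma Benjamini-Hochberg adjusted p-values of 4.75e-08 and 1.16e-08. In these bulk libraries, fewer cells that express a gene and less of its RNA in each cell cannot be told apart.

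Nes was at 360.3, 415 and 384 CPM in brain at E13.5 and at 182, 167 and 139 in spinal cord at E13.5. At P7 it was at 90.3, 92.2 and 80.8 CPM in brain and at 66.4, 65.1 and 82.4 in spinal cord. Every P7 library lay under every E13.5 library. The change was -2.13 ± 0.12 in brain and -1.18 ± 0.12 in spinal cord (log2, SE; limma adjusted p 1.88e-08 and 2.1e-06).

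Gfap, the filament gene of mature astrocytes, was nearly absent at E13.5, with 7, 1 and 1 reads in the brain libraries and 5, 10 and 0 in the spinal cord libraries. At P7 it reached 8.57, 9.56 and 13.52 CPM in brain and 20.7, 18.7 and 11.4 in spinal cord. The pooled reads gave a P7 level 74.4 times that of E13.5 in brain (exact 95% counting interval 39.0 to 163) and 51.6 times in spinal cord (31.2 to 92.3). Single libraries weighed on both, since the ratio was 222 without E13.5 brain replicate 1 (2 reads left, interval 61.3 to 1835) and 77.7 without E13.5 spinal cord replicate 2 (33.2 to 240). As log2(CPM + 0.5), a scale that shrinks the changes of low genes, the rise was 4.11 ± 0.29 in brain and 4.55 ± 0.29 in spinal cord (SE). No p-value is given for it, because Gfap entered the test through the P7 libraries alone.

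Gja1, the connexin 43 gene, and Vim had the deepest falls of the members, with changes of -3.30 and -3.11 on the log2 scale over both regions. It was at 592, 468 and 748 CPM in brain at E13.5 and at 482, 515 and 624 in spinal cord at E13.5. It was at 86.1, 90.2 and 90.9 CPM in brain at P7 and at 36.4, 35.5 and 37.4 in spinal cord at P7. The regions overlapped at E13.5 and were separate at P7, where the 3 libraries of each region lay close together. The fall was -2.73 ± 0.15 in brain and -3.86 ± 0.15 in spinal cord (log2, SE; limma adjusted p 1.28e-08 and 5.79e-10).

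The collagen, proteoglycan and Pdgfrb transcripts of vascular and leptomeningeal fibroblast-like cells, which also use Pdgfra, moved in the same direction as Vim and Gja1. All 6 of 6 markers (Col1a1, Col1a2, Col3a1, Dcn, Lum and Pdgfrb) were called lower at P7 in both regions, none being at 0. Their summed level was 5932 to 8978 CPM in brain at E13.5, 11187 to 12672 in spinal cord at E13.5, 1066 to 1428 in brain at P7 and 1194 to 2594 in spinal cord at P7. Their part in the fall of Vim, Nes and Gja1 was not tested. Of all genes, 16.7% were called lower at P7 in brain and 18.2% in spinal cord. Between regions at E13.5 the summed markers were higher in all 3 spinal cord libraries, while Vim was higher in all 3 brain libraries. Single markers differed in this. Col1a1, Col1a2, Col3a1 and Pdgfrb were higher in all spinal cord libraries, and Dcn overlapped. Lum was higher in all brain libraries, at 372 to 572 CPM against 241 to 351. Of the 6, 2 were called lower in brain, beside 5.17% of all genes, and 0 higher.

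The glutamate transporter genes parted from each other with age. Slc1a3 was at 424, 391 and 422 CPM in brain at E13.5 and at 460.0, 456 and 377 in brain at P7, so the ages overlapped. In spinal cord it was at 474, 469.9 and 327 CPM at E13.5 and at 196, 192 and 194 at P7, with no overlap. The change was 0.06 ± 0.14 in brain (log2, SE; limma adjusted p 0.735, 95% interval -0.25 to 0.37) and -1.11 ± 0.14 in spinal cord (limma adjusted p 1.7e-05). Gm37310, on the same strand within the gene's span and sharing no exon with it, averaged 36.8 CPM.

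Slc1a2 rose in both regions. It was at 38.3, 38.2 and 50.5 CPM in brain at E13.5 and at 299, 289 and 416 in brain at P7. In spinal cord it was at 103, 90.5 and 75.2 CPM at E13.5 and at 277, 269.6 and 227 at P7. The ages were separate in both regions. The regions were separate too, with brain lower at E13.5 and higher at P7, though the P7 difference of 0.36 ± 0.17 did not pass the test (log2, SE; limma adjusted p 0.121). The change was 2.96 ± 0.17 in brain and 1.53 ± 0.17 in spinal cord (log2, SE; limma adjusted p 1.66e-08 and 3.54e-06).

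Fabp7 rose, and in brain its libraries spread wider on the log2 scale than those of the other abundant members. Its E13.5 brain libraries were at 241, 506 and 435 CPM and its P7 brain libraries at 932, 928 and 568. In spinal cord it was at 154, 194 and 228 CPM at E13.5 and at 531, 505 and 487 at P7. The ages did not overlap in either region. The change was 1.07 ± 0.26 in brain and 1.42 ± 0.26 in spinal cord (log2, SE; limma adjusted p 0.00376 and 0.000385). The brain value was close to the 2-fold limit for a call, and fell under it without E13.5 brain replicate 1 (0.75), without P7 brain replicate 1 (0.95) or 2 (0.95), and with P7 replicates 1 and 2 averaged (0.95).

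Aqp4 went from 9, 7 and 2 reads in brain at E13.5 and 4, 4 and 0 reads in spinal cord at E13.5 to between 480 and 1569 reads in each P7 library. It stood at 28.3, 26.1 and 40.3 CPM in brain at P7 and at 42.4, 45.2 and 14.9 in spinal cord at P7, where replicate 3 lay apart from the other 2. Pooled reads gave a P7 level 112 times that of E13.5 in brain (exact 95% counting interval 70.5 to 188) and 195 times in spinal cord (99.0 to 453). On the log2(CPM + 0.5) scale the rise was 5.36 ± 0.36 in brain and 5.63 ± 0.36 in spinal cord (SE), given like that of Gfap with no p-value.

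Aldh1l1 and Hopx were low throughout. Aldh1l1, a widely used pan-astrocyte gene, was at 2.90, 3.51 and 2.20 CPM in brain at E13.5 and at 11.3, 10.5 and 14.4 in brain at P7, a rise of 1.91 ± 0.21 (log2, SE; limma adjusted p 6.56e-06). In spinal cord it was at 7.33, 10.7 and 10.3 CPM at E13.5 and at 7.07, 7.47 and 4.90 at P7. Those ages overlapped, and the change of -0.51 ± 0.21 (limma adjusted p 0.0459) was under 2-fold.

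Hopx, a gene of outer radial glia and of some astrocytes, was at 2.52, 1.93 and 1.72 CPM in brain at E13.5 and at 2.54, 2.08 and 2.09 in brain at P7. In spinal cord it was at 9.83, 12.9 and 15.4 CPM at E13.5 and at 7.26, 8.08 and 7.94 at P7. All spinal cord libraries lay above all brain libraries. Its change with age was 0.11 ± 0.18 in brain (limma adjusted p 0.62, 95% interval -0.28 to 0.50) and -0.65 ± 0.18 in spinal cord (limma adjusted p 0.0057), under 2-fold in both.

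Over both regions, 4 of the 10 members were called higher at P7 (Fabp7, Slc1a2, Aqp4 and Gfap) and 3 lower (Vim, Nes and Gja1), a call needing a limma adjusted p under 0.05 and a change over 2-fold. Of all 18319 genes tested, 12.7% were called higher and 16.7% lower. In brain 5 members were called higher, against 11% of all genes, and 3 lower, against 16.7%. In spinal cord 4 were called higher, against 16.9% of all genes, and 4 lower, against 18.2%. The median change of the 10 was 0.21 over both regions, beside -0.04 for all genes tested, and it was 0.59 in brain and -0.58 in spinal cord. Aqp4 and Gfap are among the members called higher in each of these counts, which their passing through the P7 libraries alone favours. Of the other 8 members, 2 were called higher and 3 lower over both regions, 3 and 3 in brain, and 2 and 4 in spinal cord, and their medians were -0.40, 0.08 and -0.88.

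**Figure D2:**
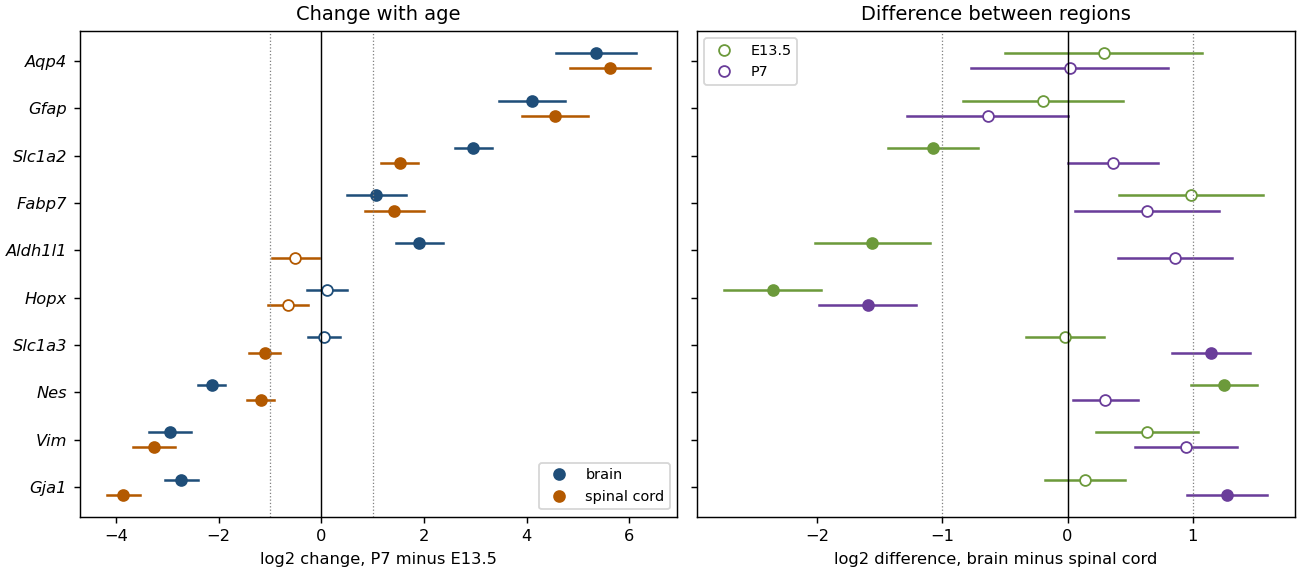
Left, log2 change from E13.5 to P7 of each gene in brain (blue) and spinal cord (brown), and right, log2 difference between brain and spinal cord at E13.5 (green) and P7 (purple). Points are limma estimates, bars their 95% intervals, filled points passed the call, and dotted lines mark a 2-fold change. Aqp4 and Gfap are filled on the left in both regions, which their passing the filter through the P7 libraries alone favours. Slc1a3 and Aldh1l1 are filled in only 1 region on the left, Slc1a3 in spinal cord and Aldh1l1 in brain.

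The regions were then compared at each age, to ask how far the sorted populations differed in space. At E13.5, Nes was higher in brain by 1.25 ± 0.12 (log2, SE; limma adjusted p 9.59e-06), with no overlap between the 3 libraries of each region. Hopx was lower in brain by -2.36 ± 0.18, Aldh1l1 by -1.56 ± 0.21 and Slc1a2 by -1.07 ± 0.17 (log2, SE; limma adjusted p 1.29e-06, 0.000138 and 0.000368). The call of Slc1a2 was lost without E13.5 spinal cord replicate 1 (-0.97). These were 1 member higher, against 3.53% of all genes, and 3 lower, against 5.17%. Fabp7 differed by 0.99 ± 0.26 (limma adjusted p 0.0126), just under 2-fold, and passed with edgeR on the recovered reads (1.04) and without E13.5 brain replicate 1 (1.31), E13.5 spinal cord replicate 2 (1.01) or 3 (1.12). Slc1a3 and Gja1 differed by -0.02 and 0.14, with 95% intervals of -0.33 to 0.29 and -0.18 to 0.46.

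At P7 the calls between regions were for Slc1a3, Gja1 and Hopx. Slc1a3 was higher in brain by 1.15 ± 0.14 and Gja1 by 1.28 ± 0.15, and Hopx was lower by -1.60 ± 0.18 (log2, SE; limma adjusted p 9.83e-05, 5.43e-05 and 4.41e-05). These were 2 members higher, against 2.27% of all genes, and 1 lower, against 4.35%. Vim (0.94, limma adjusted p 0.00264) and Aldh1l1 (0.86, limma adjusted p 0.00905) were higher in brain by less than 2-fold. At E13.5 Vim had also been higher in brain, by 0.63 (limma adjusted p 0.0207), and Aldh1l1 lower. At P7 both were called under TMM scaling (1.13 and 1.04) and median-ratio scaling (1.17 and 1.08), which raise P7 brain. Vim was also called without P7 brain replicate 3 (1.01) or P7 spinal cord replicate 3 (1.15), and Aldh1l1 with P7 replicates 1 and 2 averaged (1.01). Aqp4 and Gfap differed by 0.02 and -0.64, with wide 95% intervals of -0.77 to 0.80 and -1.28 to 0.00.

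Whether the change with age itself differed between regions was tested as an interaction. It did for Aldh1l1 (2.42 ± 0.30), Slc1a2 (1.43 ± 0.23), Slc1a3 (1.17 ± 0.20) and Gja1 (1.14 ± 0.21), each value being the log2 change in brain minus that in spinal cord with its SE, and the limma adjusted p-values were 7.74e-05, 0.000512, 0.000748 and 0.00109. These 4 members compare with 6.66% of all genes in that direction. In the direction of a lower value in brain, where 9.66% of all genes were called, limma, limma-voom and edgeR called 0 members, and 1 member (Nes) had an unadjusted limma p under 0.05. Nes, at -0.95 ± 0.17 (limma adjusted p 0.001), stayed under 2-fold, and was called without E13.5 spinal cord replicate 1 (-1.03) or P7 spinal cord replicate 2 (-1.01) and with P7 replicates 1 and 2 averaged (-1.03). Hopx (0.76, limma adjusted p 0.0307) was called under median-ratio scaling only (1.03). The call of Gja1 was lost without E13.5 brain replicate 2 (0.97).

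Ratios of pairs of members within a library do not depend on how libraries were scaled, apart from the 0.5 CPM added to each value. They are given without a length correction, so only their changes were compared. The ratio of Slc1a2 to Slc1a3 was 0.0913, 0.0989 and 0.121 in brain at E13.5 and 0.218, 0.193 and 0.231 in spinal cord at E13.5. It was 0.651, 0.634 and 1.10 in brain at P7 and 1.42, 1.403 and 1.17 in spinal cord at P7. It rose by 2.77 on the log2 scale over both regions (exact permutation test of age within region, two-sided, p = 0.005, adjusted over the 4 ratios 0.005). It was lower in brain than in spinal cord in all libraries at both ages, by -0.92 (exact permutation p = 0.005, adjusted 0.02). That region call was lost with P7 replicates 1 and 2 averaged (-0.83, adjusted 0.0667) and with the replicate numbers as a block (-0.92, adjusted 0.0625). Both settings allow fewer arrangements of the libraries than the main test, and the block allows 64, with a smallest p of 0.03125. These losses therefore cannot tell a weaker difference from a coarser test.

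The ratio of Nes to Vim was 0.629, 0.675 and 0.540 in brain at E13.5 and 0.532, 0.452 and 0.265 in spinal cord at E13.5. It was 1.08, 1.08 and 1.09 in brain at P7 and 1.79, 1.83 and 1.47 in spinal cord at P7. It rose by 1.45 (exact permutation p = 0.005, adjusted 0.005), so Vim lost more of its level than Nes. Between regions it differed by -0.01 (exact permutation p = 1, adjusted 1), an average of a ratio higher in brain in all libraries at E13.5 and lower in all at P7.

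The ratio of Fabp7 to Slc1a3 rose by 1.77 on the log2 scale (exact permutation p = 0.005, adjusted 0.005). That of Gfap to Vim rose by 7.43, given with no p-value because Gfap entered through the P7 libraries alone. Gfap lay under the added 0.5 CPM in every E13.5 library, so the size of this rise depends on the added value. The smallest p that the 400 arrangements of the 12 libraries can give is 0.005. In P7 libraries the ratio of Gfap to Vim was 0.108, 0.117 and 0.188 in brain and 0.567, 0.534 and 0.210 in spinal cord. Its region difference of -1.21 (exact permutation p = 0.015, adjusted 0.03) lost its call with 0.1 CPM added in place of 0.5 (adjusted 0.11), with P7 replicates 1 and 2 averaged (adjusted 0.1) and without each of 7 libraries in turn (adjusted 0.05 to 0.08). The ratio of Fabp7 to Slc1a3 ran from 0.325 to 1.30 in the E13.5 libraries and from 1.505 to 2.71 in the P7 libraries, and its region difference was 0.25 (exact permutation p = 0.455, adjusted 0.607).

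The members were next set beside the paralogs of their own families, as shares of the family's summed CPM per kb. These groupings were made after values had been seen, and the shares carry no test. Among 4 glutamate transporter genes, Slc1a3 held 89.9 ± 2.13% in brain at E13.5 and 83.7 ± 1.21% in spinal cord at E13.5. It held 43.1 ± 6.29% in brain at P7 and 22.8 ± 1.45% in spinal cord at P7 (SD, n = 3). Slc1a2 held 5.98 ± 0.747% and 11.6 ± 0.872% at E13.5 and 21.6 ± 3.58% and 19.6 ± 0.902% at P7. Slc1a1, the transporter EAAC1, held 1.94% and 2.78% at E13.5 and 31.5% in brain at P7 and 51.6% in spinal cord at P7. Slc1a6, the transporter EAAT4 of Purkinje neurons, held 2.21% and 1.98% at E13.5 and 3.82% and 5.99% at P7. The family's summed level was 53.8 ± 2.78 CPM per kb in brain at E13.5 and 118 ± 4.96 in brain at P7, and 59.2 ± 10.999 and 99.8 ± 6.12 in spinal cord.

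Among 7 intermediate filament genes the summed level went from 205 ± 16.6 CPM per kb in brain at E13.5 to 45.7 ± 2.17 in brain at P7, and from 144 ± 18.3 to 35.2 ± 2.90 in spinal cord. The share of Vim in brain went from 64.9 ± 2.77% to 37.4 ± 1.13%, and in spinal cord from 59.9 ± 7.07% to 25.4 ± 4.58%. Nes held 29.4 ± 2.08% and 29.9 ± 0.691% in brain at the 2 ages, so its share there was almost level while its amount fell. In spinal cord its share went from 17.9 ± 4.18% to 31.5 ± 1.60%. Gfap held 5.52 ± 1.65% in brain at P7 and 11.6 ± 4.04% in spinal cord at P7. Synm, the synemin gene, held 9.60 ± 0.258% and 11.6 ± 0.778% at P7, and Ina, the neuronal internexin gene, 16.9 ± 0.173% and 18.3 ± 2.76%. Among 3 fatty acid binding protein genes Fabp7 held between 79.0% and 96.4% in every library.

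**Figure D3:**
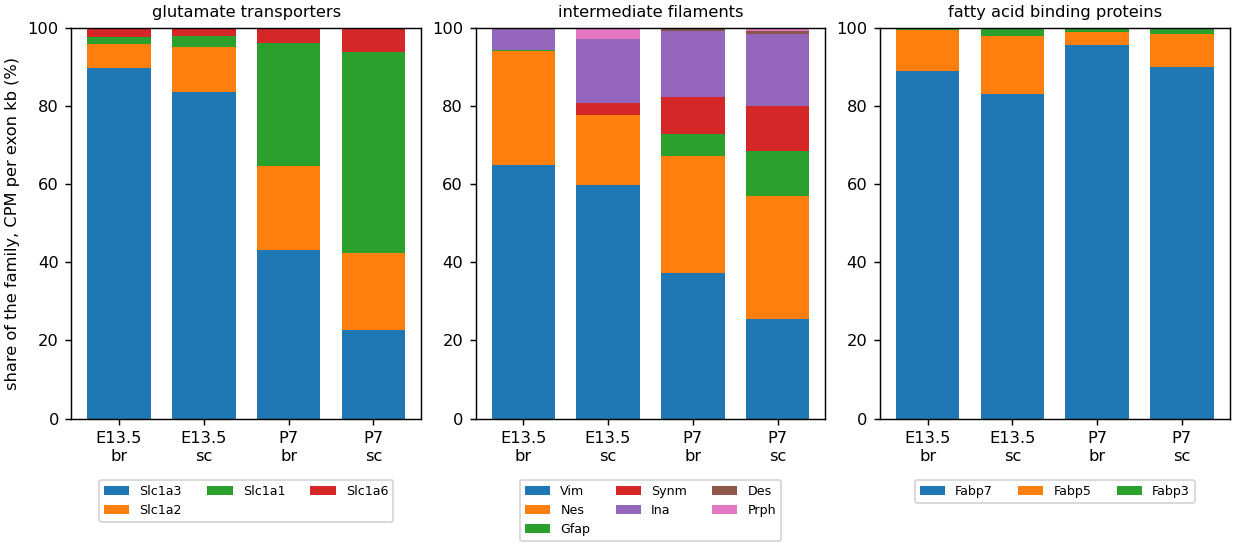
Mean share of each gene in its family's summed CPM per exon kb, in percent, in the 4 groups (br, brain, and sc, spinal cord), each bar being the mean of 3 libraries. In brain Slc1a3 goes from 89.9% to 43.1% of the glutamate transporters, and in spinal cord from 83.7% to 22.8%.

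Single paralogs, from a list that overlaps these families, were tested in the fit across all genes. Of the 16 paralogs, 15 were tested, with a median change of 1.30 over both regions. At P7, 8 were called higher and 3 lower, beside 12.7% and 16.7% of all genes. Gjc3, the connexin 29 gene of oligodendrocyte lineage cells, rose by 6.13 on the log2 scale. Gjb2, the connexin 26 gene of meningeal cells, fell by 1.56 over both regions, with changes of -0.10 in brain (limma adjusted p 0.698) and -3.01 in spinal cord (limma adjusted p 9.06e-08). Prph, the peripherin gene of neurons, had the other large fall, of 1.61. It went from 7.85 to 0.467 CPM in spinal cord, was at 0.399 and 0.251 CPM in brain, and passed the filter through E13.5 libraries alone. Of the 12 paralogs that did not pass through 1 age alone, 7 were called higher and 2 lower. Slc1a1 had the highest mean CPM of them over the 12 libraries, at 8.6 CPM on average in brain at E13.5, 13.7 in spinal cord at E13.5, 306 in brain at P7 and 425 in spinal cord at P7. At E13.5 it lay under Fabp5, a fatty acid binding protein gene at 121 CPM in brain and 102 in spinal cord. The rise of Slc1a1 over both regions was 5.01 ± 0.13 (log2, SE; limma adjusted p 1.08e-11), beside 2.24 for Slc1a2.

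A wider list of 15 radial glia genes moved in both directions, with a median change of 0.36 over both regions. At P7, 7 were called higher and 3 lower, beside 12.7% and 16.7% of all genes. Ednrb, the endothelin receptor B gene, rose by 2.75 and Ptprz1, a receptor phosphatase gene also used by oligodendrocyte precursors, by 2.52. Tnc, the tenascin C gene, fell by 2.73 and Prom1, the prominin gene of ventricular progenitor membranes, by 1.46. Ptprz1 was the most abundant of the list, at 756 CPM on average in brain at E13.5 and 2727 in brain at P7, and 224 and 1822 in spinal cord. Beside 3.53% of all genes, 5 of the 15 were called higher in brain at E13.5, namely Pax6, Sox2, Sox9, Ptprz1 and Ddah1. Nes shared that direction and Hopx did not.

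Of 18 other astrocyte genes, 14 were called higher and 1 lower at P7 over both regions, beside 12.7% and 16.7% of all genes. The median change of the 18 was 1.87. Gpr37l1, a glial receptor gene that oligodendrocyte precursors also carry, rose by 9.13 and S100b, a calcium-binding protein gene that oligodendrocyte lineage cells also use, by 5.59 on the log2 scale. The gene called lower was Gjb6, the connexin 30 gene of astrocytes, which changed by -0.52 in brain (limma adjusted p 0.0328), under 2-fold, and by -3.02 in spinal cord (limma adjusted p 2.76e-08). Without Gpr37l1 and Agt, which passed the filter through P7 libraries alone, 12 of 16 were called higher. Between regions, 2 of the 18 were called higher in brain at E13.5, beside 3.53% of all genes. At P7, 2 were called higher in brain and 1 lower, beside 2.27% and 4.35% of all genes.

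All 6 of 6 oligodendrocyte precursor markers (Pdgfra, Cspg4, Olig1, Olig2, Sox10 and Lhfpl3) were called higher at P7 in both regions, the direction of Fabp7, Slc1a2, Aqp4 and Gfap. Their summed level was 766 to 1277 CPM in brain at E13.5, 500.4 to 741 in spinal cord at E13.5, 5837 to 6992 in brain at P7 and 5613 to 5702 in spinal cord at P7. All 6 of 6 oligodendrocyte markers were called higher at P7 too, of which Mag, Mobp and Mog passed the filter through P7 libraries alone, and their sum was 19885 to 26767 CPM in spinal cord at P7 against 1921 to 4520 in brain at P7. The calls of members between regions at P7 went both ways. Hopx (-1.60, brain minus spinal cord) had the order of these markers, as did the uncalled Gfap (-0.64), and Slc1a3 (1.15) and Gja1 (1.28) had the opposite order. Beside the counts of markers, 11% of all genes were called higher at P7 in brain and 16.9% in spinal cord. Mog and Mobp were at 3 reads or fewer in all 3 E13.5 spinal cord libraries. The part of these cells in the members' values was not tested.

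Of 5 neuron markers, 3 were called lower at P7 over both regions, beside 16.7% of all genes. The 5 markers summed to 620 to 780 CPM in brain and 639 to 808 in spinal cord at E13.5. At P7 they summed to 285 to 335 CPM in brain and 261 to 276 in spinal cord. Endothelial markers summed to 28.5 to 51.5 and 92.3 to 115 CPM at E13.5 in brain and spinal cord, and 18.2 to 30.3 in all P7 libraries, with 2 of 5 called lower. Ependymal markers, of cells that also descend from radial glia and share Vim, summed to 1.52 to 16.1 CPM in all 12 libraries, with Tmem212 at 3 reads or fewer in 11 of 12. Microglia markers summed to 3.57 to 48.1 CPM. Beside 2.27% of all genes, 4 of the 4 tested were called higher in brain at P7 than in spinal cord at P7. Their part in the members' values was not tested.

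Within groups, libraries deviated from each other in several members at once. P7 brain replicate 3 exceeded the mean of replicates 1 and 2 in Aqp4 (0.56), Gfap (0.55), Slc1a2 (0.50) and Aldh1l1 (0.38), and lay under it in Fabp7 (-0.71) and Slc1a3 (-0.28), all on the log2(CPM + 0.5) scale. In P7 spinal cord the same comparison gave -1.53 for Aqp4, -0.77 for Gfap, -0.52 for Aldh1l1 and -0.27 for Slc1a2, and 0.62 for Vim and 0.32 for Nes. The replicate numbered 3 thus lay high in these 4 astrocyte genes in brain and low in them in spinal cord. Of the 18 other astrocyte genes, 12 were higher in P7 brain replicate 3 (median 0.12) and 15 lower in P7 spinal cord replicate 3 (median -0.26). The summed microglia markers were 48.1 CPM in P7 brain replicate 3 against 21.7 and 21.1, and 3.57 in P7 spinal cord replicate 3 against 11.04 and 10.9. The summed oligodendrocyte markers moved alike, at 4520 CPM in P7 brain replicate 3 against 1926 and 1921, and at 19885 in P7 spinal cord replicate 3 against 26767 and 26413. The vascular and leptomeningeal sum was 2594 CPM in P7 spinal cord replicate 3 against 1227 and 1194. The part of these cells in the members' spread was not tested.

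At E13.5, brain replicate 1 was lowest in Fabp7, with 241 CPM against 506 and 435. It was also lowest in the summed oligodendrocyte precursor markers, at 766 CPM against 1258 and 1277, and in the 15 other radial glia genes, at 1536 against 2213 and 2376. E13.5 brain replicate 2 was lowest in Gja1, at 468 CPM against 592 and 748, and in the vascular and leptomeningeal sum, at 5932 against 8978 and 8429. Whether these sets of values are linked was not tested.

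**Figure D4:**
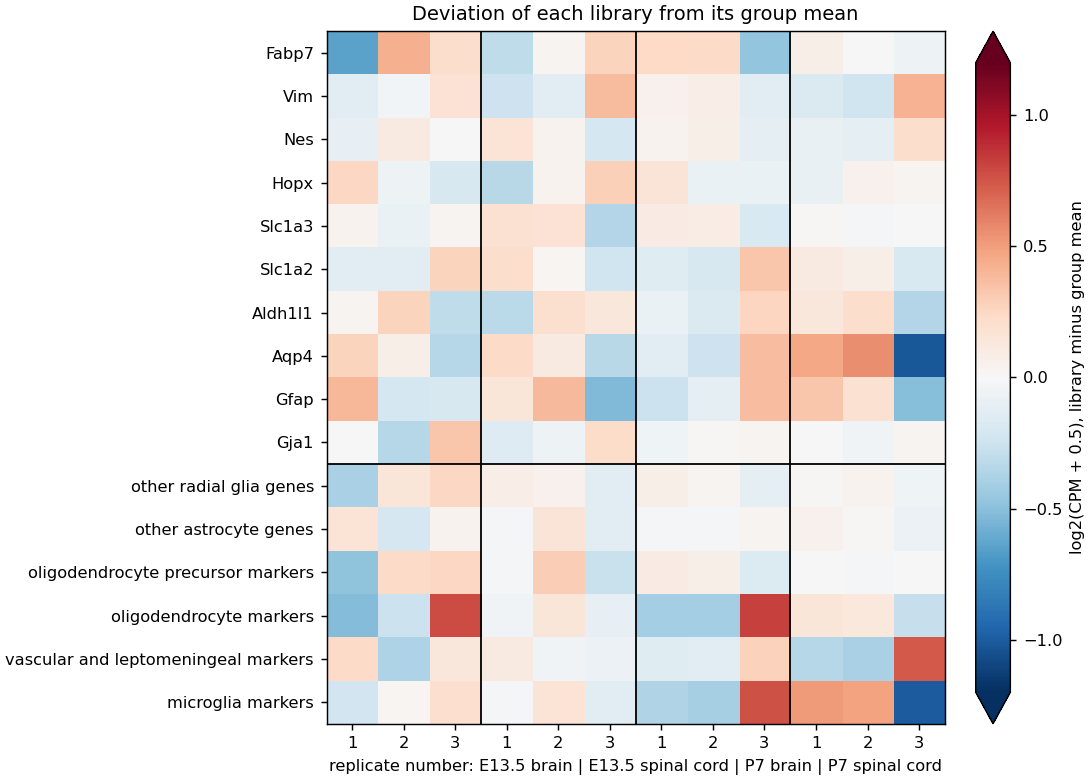
Deviation of each library from the mean of its group, in log2(CPM + 0.5), for the 10 genes (above the line) and for the summed CPM of gene lists (below it), with red for higher and blue for lower. In the P7 groups the column of replicate 3 is red in brain and blue in spinal cord for Aqp4, Gfap, Slc1a2, Aldh1l1 and the microglia markers.

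For each member, the 2 genes with the most similar profile over the 12 libraries were found among 13694 other protein-coding genes, by the root mean square (RMS) difference of centred log2(CPM + 0.5). Nes was nearest to Sfrp1, a secreted Wnt antagonist gene (RMS 0.20), and Tmem131l (0.24), against a spread of 0.95 of Nes itself over the libraries. Vim was nearest to Synpo (0.30) and Rai14 (0.30), both genes of actin-associated proteins, and Gja1 to Adra2a (0.22), an adrenergic receptor gene, and Tubb3 (0.27), a tubulin gene of neurons. Fabp7 was nearest to Wnt7a, a Wnt ligand gene, and Nxph1, a neurexin ligand gene (0.23 each). Of the pair nearest to Slc1a2, 1 was Pcsk2 (0.24), a prohormone convertase gene.

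Hopx was nearest to Zfp503 (RMS 0.17), a zinc finger gene at 6.61 CPM in brain at E13.5 and 45.4 in spinal cord at E13.5, and to Chodl (0.27). Slc1a3 was nearest to Gpr26 (0.17) and to Bmp15 (0.17), the latter under 1 CPM on average in every group. Aldh1l1 was nearest to Disp3 (0.24) and to Ryr2 (0.25), a calcium release channel gene. Aqp4 had the most distant neighbours, Ptpre (0.49) and Sox8 (0.55), but also the widest spread of its own (2.78, against 0.50 for Slc1a3). Sox8 is a transcription factor gene of the oligodendrocyte lineage that went from 16.7 to 440 CPM in brain. Gfap was nearest to Sirt2 (0.34), a deacetylase gene abundant in oligodendrocytes, and Dbndd2 (0.36).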

How the data were processed

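Total RNA was measured by RNA-seq in 12 libraries, 3 in each of 4 groups taken from the sample titles. Per the methods of the study, stranded read pairs were aligned with STAR (2.5.0a in the submitters' processing notes) to mm10 and counted per GENCODE M8 gene with featureCounts (1.5.0-p1). The authors deposited CPM values with no log, each count being divided by a library size rescaled by a normalization factor. In 3 deposited columns the sum exceeds what CPM allows, so these were handled as a scaled signal of the same kind. Every value was a whole multiple of 1 read (100% within 0.01), so reads were recovered. 0 sample columns were left out. The 10 members and all gene lists were chosen with earlier results of these data known.

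The main test was limma (3.58.1) with an intensity trend on log2(CPM + 0.5), since the values were CPM, where the study used voom. All 12 libraries entered 1 model of group means, over the 18319 genes that reached 0.7 CPM in 3 or more libraries, and p-values were Benjamini-Hochberg adjusted over all of them. A call needed an adjusted p under 0.05 and a change over 2-fold. Ratios of members were compared by exact two-sided permutation within region or age. Alternatives were an added 0.1 or 1 CPM, no filter, TMM or median-ratio scaling, limma-voom and edgeR (4.0.16) on recovered reads, a replicate block, each library left out and P7 replicates 1 and 2 averaged. In the wider lists, the genes named are the 2 largest rises and 2 largest falls among those called over both regions and the gene with the highest CPM. Some genes that these rules name, and results that rest on them, are not reported here. Exon lengths came from GENCODE M21 and promoters from RefSeq. After the data were seen, 2 further alternatives were added: pooled read ratios of Aqp4 and Gfap without each library, and counts without genes that passed the filter through 1 age alone. The scripts were tested on simulated data. PCR copies are not independent molecules, so intervals and floors describe counting error alone.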

Additional observations from a re-analysis of the deposited data

Results flagged for a closer look

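The change with age differed between brain and spinal cord, by the test of the difference itself, for 4 of the 10 genes. The change in brain minus that in spinal cord was 2.42 for Aldh1l1, which rose in brain and changed by -0.51 in spinal cord. It was 1.43 for Slc1a2, which rose in both regions and more in brain. It was 1.17 for Slc1a3, which fell in spinal cord and changed by 0.06 in brain. It was 1.14 for Gja1, which fell in both regions and more in spinal cord. All are log2 values, and the median over all genes tested was -0.24 with the deposited scaling and -0.07 with TMM factors. Groups of 3 libraries are too small for a test of single outlying libraries, and none was made.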

How the results depend on the processing

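Of 126 recomputed counts of members called, 124 stayed within 1.5 times the main count. The count for brain minus spinal cord at P7 went from 3 to 5 under TMM and under median-ratio scaling, which added Vim and Aldh1l1. All changes with age of the ratios kept their direction, and those of the ratios without Gfap kept their call. For brain minus spinal cord, the ratio of Slc1a2 to Slc1a3 lost its call with P7 replicates 1 and 2 averaged (-0.83, adjusted p 0.0667) and with the replicate block (-0.92, adjusted p 0.0625). The ratio of Gfap to Vim lost its call with 0.1 CPM added (-1.32), with P7 replicates averaged (-1.03) and with the block (-1.21, adjusted p 0.0625), and it ran from -1.44 to -1.08 when libraries were left out. The block allows 64 arrangements, so its smallest p is 0.03125, and averaging also leaves fewer arrangements than the main test. A call lost under either can thus come from the coarser test alone. The ratio of Nes to Vim, near 0, was 0.0141 with P7 replicates averaged and ran from -0.16 to 0.0909 when libraries were left out.

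Some uncalled changes of single members, near 0 or wide, turned their sign. Slc1a3 for brain minus spinal cord at E13.5 (-0.02) was 0.0086 with limma-voom and ran from -0.20 to 0.0708 when libraries were left out. Gja1 for the same contrast (0.14) ran from -0.0282 to 0.31. Aqp4 for brain minus spinal cord at P7 (0.02) was -0.11 with edgeR and ran from -0.49, without P7 spinal cord replicate 3, to 0.29. Its interaction (-0.27) was 0.0773 with P7 replicates averaged and ran from -0.78 to 0.0068. The interaction of Gfap (-0.44) was 0.55 with limma-voom and 0.47 with edgeR. The cause was not tested.

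The replicate block changed no call of a member and no count of members called (7 members over both regions and 8 within each region, with and without it). At E13.5, brain and spinal cord libraries that share a number had deviations correlated by 0.43, 0.10 and 0.52. Those of unlike number had correlations from -0.56 to 0.29. At P7 the values were 0.02, 0.02 and 0.06 for like numbers and -0.08 to 0.12 for unlike numbers. No source used here says if the numbers mark pairs, which at E13.5 stays possible. The main test took no pairs at either age. Depth limits Aqp4 and Gfap at E13.5, which rest on 0 to 10 reads per library.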
